A study of Homo sapiens with 64 samples.

Results

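Metallothioneins are small, cysteine-rich proteins that hold zinc and copper and also bind cadmium and other heavy metals. Their transcription rises when free zinc rises, through the zinc-sensing factor MTF1, which binds metal response elements in their promoters, and glucocorticoids and oxidative stress also induce them. The members described here were the 8 human genes MT1A, MT1E, MT1F, MT1G, MT1H, MT1M, MT1X and MT2A. They were chosen by symbol, each matched a single Ensembl identifier, and they were 8 of the 54127 genes counted in each of 64 RNA sequencing libraries.

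All libraries came from colorectal cancer cell lines grown as nonadherent spheroids in serum-free medium with EGF and bFGF. Each division dilutes the dye CFSE among the daughters, and cells that have divided little therefore stay bright and are called label-retaining cells (LRCs). For 48 libraries, cells of HT55 and SW948 (subtype CCS1), RKO and SW48 (CCS2) and DLD1 and HCT15 (CCS3) were stained with CFSE, grown for 6 days and sorted into LRCs and the bulk of cycling cells (non-LRCs), with 4 replicates per population and line. The other 16 were unsorted control libraries labeled DLD1, from cells given CFSE or only its solvent DMSO (unlabeled) and taken at d1 or d5, with 4 replicates each. The sample labels read d5 where the series text reads day 6. A line is at most 1 example of its subtype, and the study's text does not give the donors of the lines, so they may not be independent. The study's methods describe the experiments as biological quadruplicates, and they do not say what same-numbered libraries share. In sorted DLD1, sorted HCT15 and CFSE-labeled controls, replicates 1 and 2 resembled each other more than 3 or 4, and likewise 3 and 4. In CFSE-labeled d1 controls, chi-square per gene between 2 libraries was 5.94 and 4.09 within these sets and 54.2 to 70.8 across them. Tests without a block treated the 4 libraries as independent, so they may understate the spread there. Between 12237225 and 20913455 reads per library fell on genes. Levels are given as CPM, a gene's count relative to the total of its library after scaling by edgeR's TMM method. A gene is called where edgeR's quasi-likelihood test gives a Benjamini-Hochberg adjusted p under 0.05 over all genes tested. Fold changes are on the log2 scale, with ± for their standard error (SE). The SE was computed as the absolute fold change over the square root of the test's F statistic.

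The 8 genes lie within 75.6 kb of chromosome 16 (GRCh37), in the order MT2A (chr16:56642496-56643409), MT1E (chr16:56659387-56661024), MT1M (chr16:56666571-56667893), MT1A (chr16:56672578-56673999), MT1F (chr16:56691643-56694610), MT1G (chr16:56700642-56701977), MT1H (chr16:56703726-56705041) and MT1X (chr16:56716382-56718108). MT1G is on the minus strand and the other 7 are on the plus strand. Near identity limits what a short read can tell about a single member, so the coding sequences are shown of the 4 members counted in every library and of MT1M, which was called in RKO. Capitals mark the bases that differ from MT2A at the same position. The sequences were read from GENCODE release 44 on GRCh37, plus strand, 5′ to 3′ from the start to the stop codon, joined over 3 coding exons.
MT2A, chr16:56642568-56643266: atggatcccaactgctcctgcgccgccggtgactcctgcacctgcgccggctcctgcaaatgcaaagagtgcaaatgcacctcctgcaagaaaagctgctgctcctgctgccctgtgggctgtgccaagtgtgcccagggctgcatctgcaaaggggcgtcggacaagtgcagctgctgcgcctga
MT1E, chr16:56659764-56660883: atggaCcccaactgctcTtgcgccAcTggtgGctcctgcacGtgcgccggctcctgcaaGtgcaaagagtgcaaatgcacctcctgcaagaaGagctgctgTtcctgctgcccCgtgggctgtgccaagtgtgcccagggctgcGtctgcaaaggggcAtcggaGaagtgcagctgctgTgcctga
MT1X, chr16:56716453-56717961: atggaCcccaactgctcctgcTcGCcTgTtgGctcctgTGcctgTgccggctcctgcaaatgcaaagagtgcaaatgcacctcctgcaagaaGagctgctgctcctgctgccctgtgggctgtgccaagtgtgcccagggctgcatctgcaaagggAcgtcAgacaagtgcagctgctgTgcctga
MT1F, chr16:56691971-56693076: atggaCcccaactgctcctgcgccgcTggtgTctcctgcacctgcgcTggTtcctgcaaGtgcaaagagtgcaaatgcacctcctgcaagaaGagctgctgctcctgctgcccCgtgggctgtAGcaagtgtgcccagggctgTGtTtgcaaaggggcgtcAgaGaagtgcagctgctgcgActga
MT1M, chr16:56666644-56667754: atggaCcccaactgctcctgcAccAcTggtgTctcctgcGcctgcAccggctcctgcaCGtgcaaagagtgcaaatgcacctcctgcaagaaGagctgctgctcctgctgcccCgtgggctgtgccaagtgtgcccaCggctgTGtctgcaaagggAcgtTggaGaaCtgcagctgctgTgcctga
Each of these runs has 186 bases and 61 codons before the stop, 20 of them for cysteine. MT1E (here its 3-exon transcript) and MT1X each differed from MT2A at 14 bases (92.5% identity), MT1F differed at 16 (91.4% identity) and MT1M at 19 (89.8% identity). Of the 50-base windows of the reference transcript, as long as the reads, 88.9% were unique to the gene for MT2A, 79.9% for MT1E, 93.9% for MT1F and 46.8% for MT1X. The share was 94.2% for MT1A, 78.7% for MT1G, 79.6% for MT1H and 81.4% for MT1M. Alignments to several places were listed apart from the gene counts, so MT1X could be counted from a smaller share of its length than the other members, and how reads were split among near-identical copies is uncertain for all 8.

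RefSeq promoters were given for MT2A, MT1X and MT1H (GRCh38.p14, plus strand), and the 250 bases upstream of the start are shown for MT2A and MT1X, which were counted in every library. Capitals mark the core of the metal response element, searched as TGCACNC and TGCGCNC on both strands.
MT2A, chr16:56608334-56608583: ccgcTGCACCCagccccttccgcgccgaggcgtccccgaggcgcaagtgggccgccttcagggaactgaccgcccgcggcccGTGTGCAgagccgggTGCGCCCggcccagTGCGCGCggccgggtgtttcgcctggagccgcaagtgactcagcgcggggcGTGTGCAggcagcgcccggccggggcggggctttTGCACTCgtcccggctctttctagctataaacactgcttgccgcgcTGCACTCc
MT1X, chr16:56682220-56682469: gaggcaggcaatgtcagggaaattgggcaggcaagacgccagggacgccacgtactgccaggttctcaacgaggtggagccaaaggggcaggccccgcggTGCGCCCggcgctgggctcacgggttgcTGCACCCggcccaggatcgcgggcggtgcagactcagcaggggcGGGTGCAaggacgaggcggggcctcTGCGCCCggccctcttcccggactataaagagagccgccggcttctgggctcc
The MT2A window held 7 cores (5 on the plus and 2 on the minus strand), the MT1X window 4 and the MT1H window 8, with 0 overlapping. Among 35116 promoter windows of the same length, 24.8% held at least 1 core, 0.370% held 4 or more, 0.0313% held 7 or more and 0.0171% held 8 or more. A match of these letters describes the sequence and is not evidence of binding.

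The libraries labeled DLD1 did not behave as 1 line, which bears on every control result. Across 16899 genes, all 16 unsorted controls labeled DLD1 correlated more closely with the mean of sorted HCT15 non-LRCs (Pearson's r 0.944 to 0.992) than with that of sorted DLD1 non-LRCs (0.915 to 0.955). Of 38 genes above 5 CPM in one of these sorted lines and under 0.1 CPM in the other, all 38 followed HCT15 in the controls. Of the metallothioneins, MT1A and MT1M showed the same split, and the more abundant MT1E and MT1X did not. MT1A had 0 counts in all 8 sorted libraries labeled DLD1, 22 to 89 counts in the 16 controls and 15 to 27 counts in the 8 HCT15 libraries. MT1M likewise had 0 counts in the 8 sorted DLD1 libraries, 2 to 32 in the controls and 3 to 13 in HCT15. Against a limit of 3 counts over the 8 sorted DLD1 libraries, MT1A was at least 113-fold higher and MT1M at least 29.5-fold higher in the controls. MT1X had means of 6.33 CPM in DLD1 non-LRCs, 3.01 in HCT15 non-LRCs and 5.57 to 8.64 in the control groups. MT1E had means of 41.3, 23.4 and 55.8 to 87.4 CPM, so its control means lay above both sorted lines. MT2A had means of 47.7 CPM in DLD1 non-LRCs, 44.3 in HCT15 non-LRCs and 97.5 to 167 in the control groups. Sorted and unsorted libraries thus differed in level where the 2 lines did not. The levels of MT1E and MT1X therefore do not show which line the controls resemble. Which libraries carry the wrong name cannot be told apart from these data, so "controls labeled DLD1" is used throughout for the unsorted libraries.

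**Figure D1:**
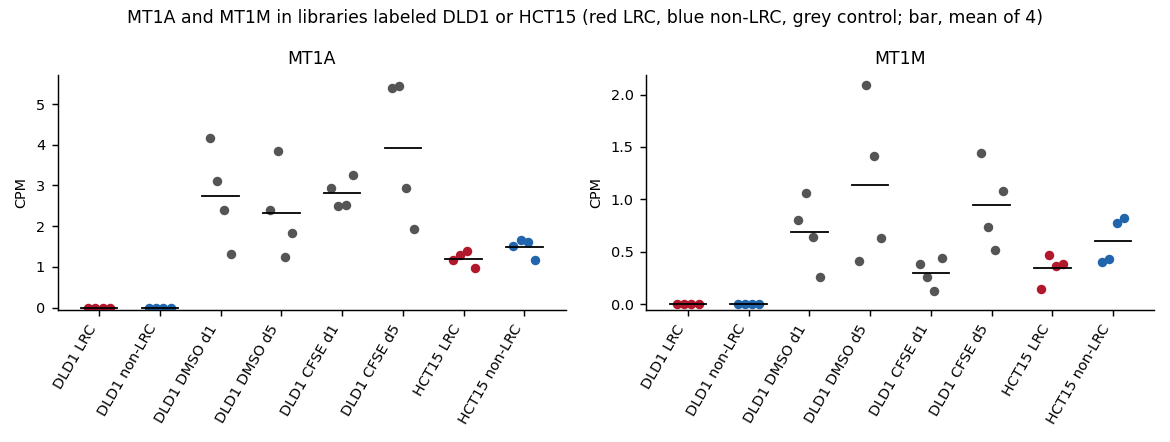
MT1A and MT1M levels (CPM, vertical axis) in each library labeled DLD1 or HCT15, as points by group. Both genes are at 0 in the 8 sorted libraries labeled DLD1 and above 0 in all 16 controls and all 8 HCT15 libraries.

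A second irregularity concerned 1 control. The unlabeled d1 replicate 4 correlated at 0.982 to 0.993 with the unlabeled d5 libraries and at 0.972 to 0.978 with its own group, in which the other 3 libraries correlated at 0.990 to 0.994. Control results for the members and the metal handling genes are therefore given with and without it. All 9 epithelial markers had counts in every group, at summed levels of 219 to 334 CPM in RKO and 2459 to 18246 CPM elsewhere. Of 6 fibroblast markers, 1 to 4 were at 0 in each group and the summed level was at most 13.99 CPM. Of 4 leukocyte markers, CD3E was at 0 in every group and the summed level was at most 22.3 CPM, in SW48.

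MT2A was the most abundant metallothionein in RKO, and RKO stood far above the other lines. MT2A, the most widely expressed member in human tissues, was counted in all 64 libraries. In RKO non-LRCs it stood at 851, 724, 1064 and 981 CPM in replicates 1 to 4. It stood at 59.7, 161, 44.7 and 67.7 CPM in SW48 non-LRCs and at 40.8, 93.9, 84.4 and 59.6 CPM in HT55 non-LRCs, and these lines overlapped. DLD1 non-LRCs had 51.5, 57.5, 39.0 and 42.9 CPM and HCT15 non-LRCs 33.3, 64.4, 47.2 and 32.5 CPM, which also overlapped. In SW948 non-LRCs MT2A was near the floor, at 1.20, 1.73, 0.965 and 1.082 CPM, from 15 to 23 counts. In the test on the 24 non-LRC libraries, adjusted over all genes and all 15 pairs of lines, RKO was above SW48 by 3.44 ± 0.31 (adjusted p = 2.59e-10) and SW948 minus HCT15 was -5.16 ± 0.43 (adjusted p = 5.84e-11). The neighbors between these ends, SW48 and HT55 (adjusted p = 0.509), HT55 and DLD1 (adjusted p = 0.0884) and DLD1 and HCT15 (adjusted p = 0.755), did not differ beyond the replicate error.

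MT1E, a close relative of MT2A, had the same extremes. It stood at 209 ± 36.9 CPM in RKO non-LRCs (SD, n = 4, as for the next values), 43.9 ± 9.80 in SW48, 42.3 ± 20.4 in HT55, 41.3 ± 3.61 in DLD1, 23.4 ± 7.53 in HCT15 and 0.171 ± 0.102 in SW948, where a library had 1 to 4 counts. SW48, HT55 and DLD1 did not differ from each other (adjusted p = 0.813 to 0.974), and DLD1 was above HCT15 by 0.83 ± 0.25 (adjusted p = 0.00523). MT1X ranged less, from 35.0 ± 6.51 CPM in RKO over 19.4 ± 5.51 in HT55, 17.9 ± 5.78 in SW48, 6.33 ± 0.439 in DLD1 and 3.01 ± 1.05 in HCT15 to 1.25 ± 0.385 in SW948. Of the neighbors in this order, HT55 and SW48 alone did not differ (adjusted p = 0.542). Per kilobase of reference transcript, the level in RKO non-LRCs was 2257 ± 372 CPM for MT2A and 281 ± 49.5 CPM for MT1E.

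Between lines, the levels of MT1F and MT1G did not follow MT2A. MT1G was highest in HT55 non-LRCs, at 10.5, 33.4, 21.7 and 16.3 CPM, then 9.93 ± 4.75 CPM in SW48, 3.29 ± 0.740 in RKO and 0.354 ± 0.264 in SW948. In DLD1 and HCT15 it had 0 or 1 count per library. MT1F was also highest in HT55, at 18.4 ± 12.7 CPM, and its lowest means were in RKO (0.832 ± 0.135 CPM) and SW948 (0.996 ± 0.456 CPM), a pair that did not differ (adjusted p = 0.665). RKO minus HCT15 was -1.46 ± 0.44 in MT1F (adjusted p = 0.00506), although RKO topped MT2A, MT1E and MT1X.

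MT1M was highest in RKO, at 14.3, 12.6, 17.6 and 18.9 CPM in non-LRCs, with 1.16 ± 0.843 CPM in HT55 and 0.606 ± 0.219 in HCT15. It had 0 counts in all 24 sorted libraries of SW948, SW48 and DLD1, and 3 counts over the 8 libraries of a line would be 0.0238 CPM in SW948, 0.0269 in SW48 and 0.0261 in DLD1. These limits cover counting error only. MT1A was low in all sorted lines, with its highest level in HCT15 non-LRCs at 1.504, 1.66, 1.60 and 1.16 CPM. It was at 0 in DLD1 and at 0 to 4 counts in SW48. MT1H had at most 11 counts in any library and 0 in 52 of the 64, and all 8 HT55 libraries were among the 12 with a count. MT1H was tested in no comparison.

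All 7 tested members differed between lines, where 98.3% of all genes did. Of 105 tests of a member in a pair of lines, 85 passed, where 71.2% of such tests over all genes passed. Summed over the 8 members, the level was 1170.0 ± 195 CPM in RKO non-LRCs and 4.46 ± 0.166 CPM in SW948 non-LRCs, and the means of the other lines ran from 75.1 CPM in HCT15 to 173 CPM in HT55. MT2A made up 77.0% to 77.5% of the sum in the 4 RKO non-LRC libraries. In SW948 non-LRCs it made up 20.5% to 39.0% and MT1X 19.2% to 40.6%.

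**Figure D2:**
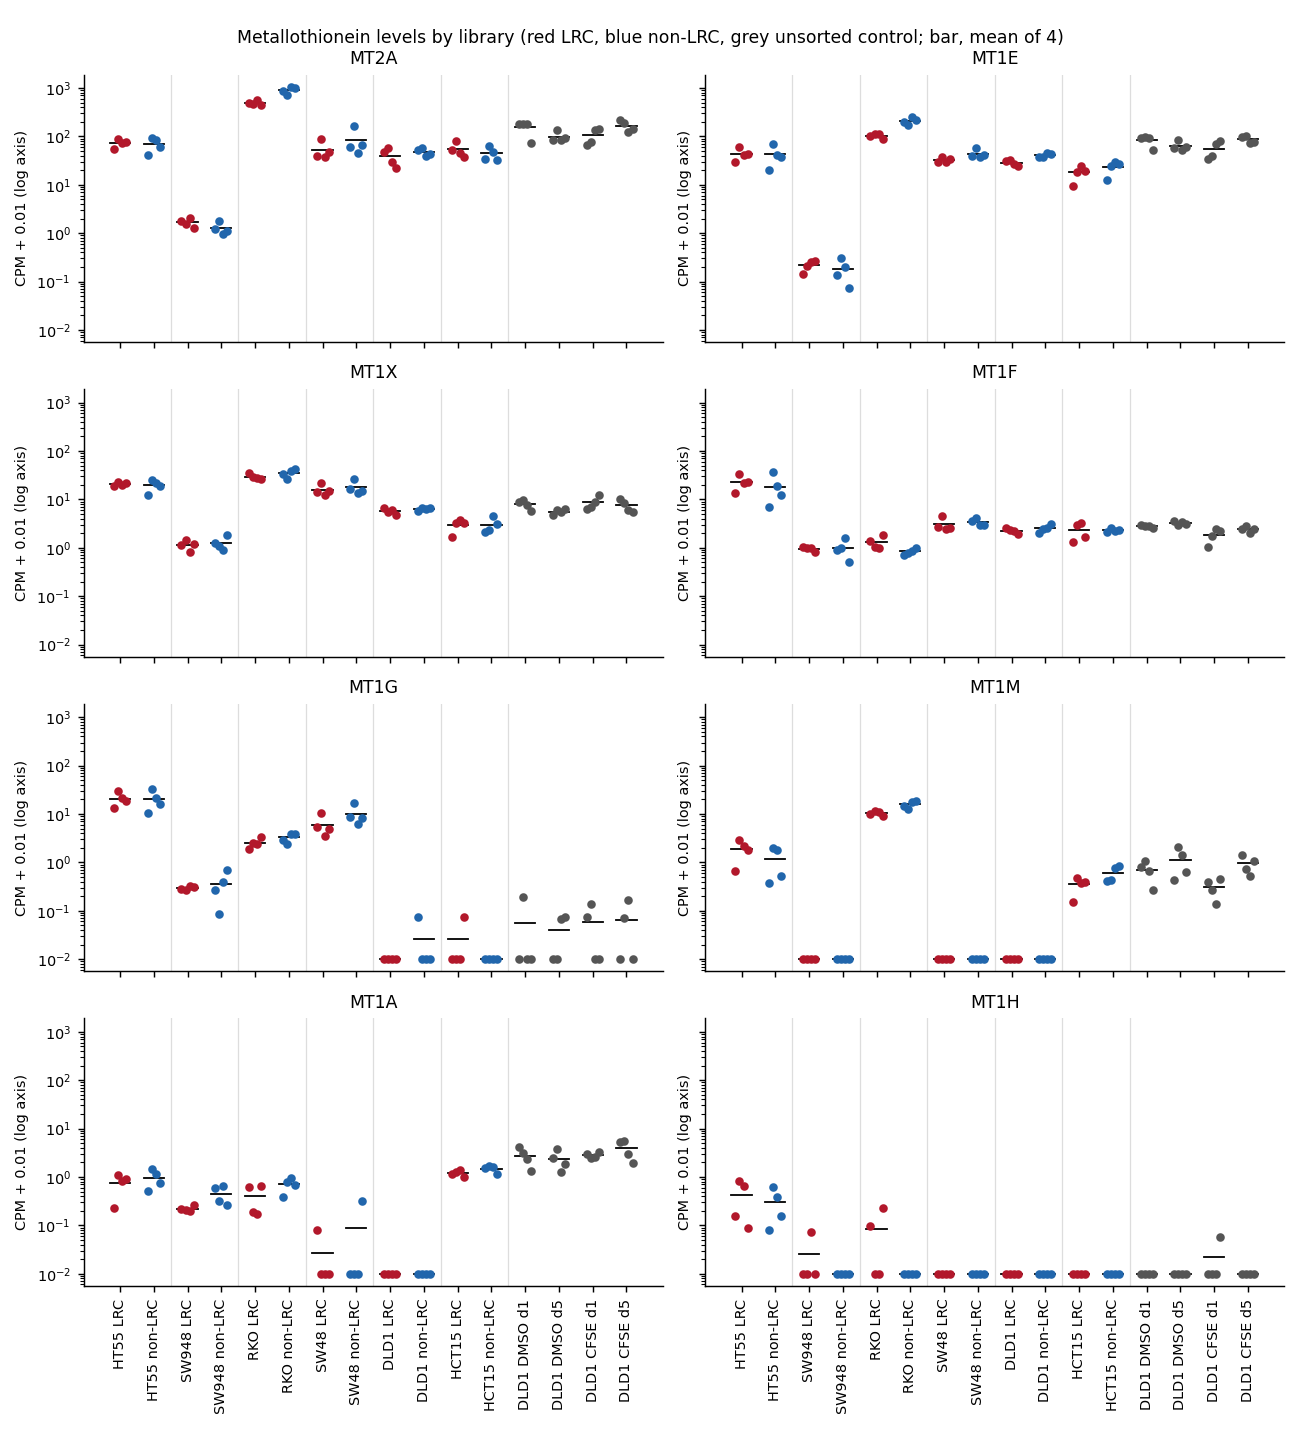
Level of each of the 8 members (CPM plus 0.01, log axis) in every library, by group, with bars at the mean of 4 libraries. RKO tops MT2A, MT1E, MT1X and MT1M, HT55 tops MT1F and MT1G, and MT1H is at 0 in 52 of 64 libraries.

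The study asked what sets slowly dividing cells apart from cycling cells of the same line. In RKO, MT2A, MT1E and MT1M were lower in LRCs. MT2A stood at 493, 462, 568 and 449 CPM in LRCs and 724 to 1064 CPM in non-LRCs. MT1E stood at 101, 109.6, 114 and 89.3 CPM in LRCs and 196, 168, 255.2 and 219 CPM in non-LRCs. MT1M stood at 10.0009, 11.3, 11.1 and 9.09 CPM in LRCs and 12.6 to 18.9 CPM in non-LRCs. All 4 LRC libraries lay below all 4 non-LRC libraries for each of the 3 genes. MT2A fell by 0.90 (SE 0.11, adjusted p = 1.98e-05), MT1E fell by 1.04 (SE 0.11, adjusted p = 6.04e-06) and MT1M fell by 0.64 (SE 0.14, adjusted p = 0.00162).

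These were 3 of the 7 members tested in RKO, a share near the 41.5% of all genes that passed. The median fold change of the 7 was -0.64, against 0.01 for all genes tested. MT1X (-0.28 ± 0.12, adjusted p = 0.0826), MT1G (-0.37 ± 0.23, adjusted p = 0.209) and MT1A (-0.80 ± 0.46, adjusted p = 0.177) did not pass, nor did MT1F (0.65 ± 0.30, adjusted p = 0.0899), the one member with a positive value, which was higher in LRCs in 4 of 4 same-numbered pairs. In a fit of all 48 sorted libraries, MT1M in RKO was at -0.62 (adjusted p = 0.117). The pseudogenes MT1P1 and MT1P3, which can share reads with the members and are named after their values were seen, changed as well. MT1P1 fell by 1.345 (SE 0.28, adjusted p = 0.00126) and MT1P3 fell by 0.58 (SE 0.16, adjusted p = 0.00955). Alignments to several places made up 29.7% to 31.8% of those listed for RKO LRCs and 28.3% to 31.0% for RKO non-LRCs. Of 10 proliferation genes, 8 were lower in RKO LRCs, with summed levels of 626 to 1182 CPM against 1332 to 1449 CPM, and their part in the result was not tested. In bulk libraries, fewer cells with a transcript and less of it per cell cannot be told apart.

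In the sorted line labeled DLD1, MT1E was lower in LRCs. It stood at 30.5, 32.9, 27.2 and 24.8 CPM in LRCs and 38.3, 38.1, 45.02 and 43.7 CPM in non-LRCs, with no overlap. MT1E fell by 0.50 (SE 0.09, adjusted p = 0.00671), 1 call among 4 members tested, where 14.6% of all genes passed. Without replicate 3 its adjusted p was 0.0521, and in a fit of all 48 sorted libraries it was 0.212. MT2A overlapped, at 22.2 to 58.3 CPM in LRCs and 39.0 to 57.5 CPM in non-LRCs. With same-numbered libraries as a block, MT2A passed as well and fell by 0.28 (SE 0.09, adjusted p = 0.0162), where 33.8% of all genes passed. Of the proliferation genes in this line, 7 of 10 were lower in LRCs (778 to 1148 CPM summed, against 1298 to 1419 CPM) without the block and 10 of 10 with it, and their part was not tested.

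Same-numbered LRC and non-LRC libraries deviated together in HT55, SW48, DLD1 and HCT15, so in these 4 lines values with the replicate number as a block are given where they change a member's call. In SW48, MT1E stood at 29.1, 38.2, 29.0 and 33.6 CPM in LRCs and 38.4, 58.4, 37.7 and 40.9 CPM in non-LRCs. MT2A stood at 39.4, 87.4, 37.02 and 47.1 CPM in LRCs and 44.7 to 161 CPM in non-LRCs. MT1G stood at 5.47, 10.3, 3.42 and 4.99 CPM in LRCs and 8.46, 16.9, 6.15 and 8.24 CPM in non-LRCs. The groups overlapped, and each of the 3 genes was lower in LRCs in 4 of 4 same-numbered pairs. Without the block, edgeR called 0 of 5 members (1 at an unadjusted p under 0.05, 0 with DESeq2), where 0.796% of all genes passed. With it, 3 of 5 passed, where 9.69% of all genes did. MT1E fell by 0.43 (SE 0.08, adjusted p = 0.00830), MT2A fell by 0.59 (SE 0.09, adjusted p = 0.00387) and MT1G fell by 0.72 (SE 0.12, adjusted p = 0.00492). In the same fit, 9 of 10 proliferation genes were lower in LRCs (462 to 1104 CPM summed, against 526 to 1679 CPM), and their part was not tested.

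In HCT15, MT2A and MT1E had opposite signs. MT1E stood at 9.53, 18.6, 24.8 and 19.0 CPM in LRCs and 12.4, 24.6, 29.0 and 27.5 CPM in non-LRCs, lower in 4 of 4 pairs. MT2A stood at 51.5, 79.7, 46.3 and 37.6 CPM in LRCs and 33.3, 64.4, 47.2 and 32.5 CPM in non-LRCs, lower in 1 of 4 pairs. Both genes overlapped between the populations. Without the block, edgeR called 0 of 5 members (0 at an unadjusted p under 0.05, 0 with DESeq2), where 0.977% of all genes passed. With the block, MT1E fell by 0.37 (SE 0.09, adjusted p = 0.00582) and MT2A rose by 0.29 (SE 0.08, adjusted p = 0.0219), where 21.3% of all genes passed. In the same fit, 5 of 10 proliferation genes were higher in LRCs (1085 to 2030.0 CPM summed, against 987 to 1718 CPM) and 3 of 9 epithelial markers were lower, and their part was not tested. The ratio of MT2A to MT1E counts was 5.40, 4.28, 1.87 and 1.98 in LRCs and 2.68, 2.62, 1.63 and 1.18 in non-LRCs, higher in LRCs in 4 of 4 pairs. In an exact test that ignored the pairs, the ratio did not pass (p = 0.229, adjusted over 6 lines p = 0.686). With 4 libraries per population, the smallest unadjusted p of this test is 0.0286. After adjustment over 6 lines, HCT15 alone could therefore not have passed, and the test cannot decide whether its ratio differed. The mean log2 ratio differed by 0.67 in HCT15 and by -0.15 to 0.17 in the other lines, where it did not pass either.

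HT55 and SW948 gave no call. In HT55, MT2A differed by 0.06 ± 0.23 and MT1E by 0.04 ± 0.32, and edgeR called 0 of 7 members (0 at an unadjusted p under 0.05, 0 with DESeq2), where 0% of all genes passed. The spread in this line was wide, with MT1F at 13.5, 33.5, 21.4 and 23.3 CPM in LRCs and 6.82, 36.1, 18.5 and 12.2 CPM in non-LRCs. With the block, 0 of 13391 genes passed in HT55, and 2055 were at an unadjusted p under 0.05. In that fit MT1F was at 0.45 ± 0.17 (unadjusted p = 0.0274, adjusted p = 0.266). MT1M was at 0.73 ± 0.29 (unadjusted p = 0.0291, adjusted p = 0.271), higher in LRCs in 4 of 4 pairs. In SW948, 0 of 3 members passed (0 at an unadjusted p under 0.05, 0 with DESeq2), where 0% of all genes passed. MT2A stood there at 1.76, 1.56, 2.03 and 1.28 CPM in LRCs, from 24 to 33 counts, and differed from non-LRCs by 0.42 ± 0.26. Its low counts limit what could be detected. Of 10 proliferation genes, 0 passed in HT55 and 0 in SW948. Their summed levels were 815 to 1067 CPM in HT55 LRCs against 890 to 998 CPM in non-LRCs. In SW948 they were 1318 to 1602 CPM against 1372 to 1487 CPM, and their part was not tested.

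**Figure D3:**
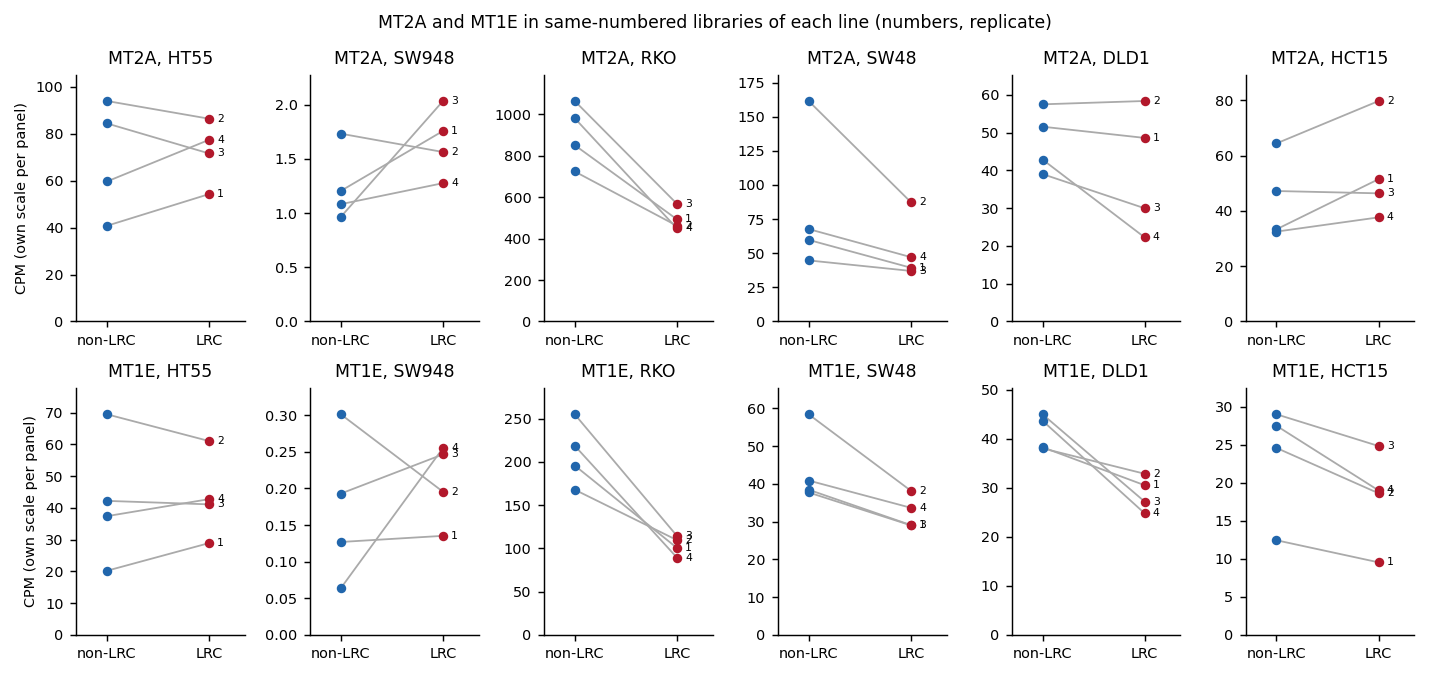
MT2A and MT1E levels (CPM, own scale in each panel) in non-LRCs and LRCs of each line, with lines joining libraries of the same replicate number. MT1E is lower in LRCs in all 4 pairs of RKO, SW48, DLD1 and HCT15, while MT2A is lower in 1 of 4 HCT15 pairs.

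Across the 6 lines, with line as a covariate, MT1E fell by 0.47 (SE 0.11, adjusted p = 0.00195). It was 1 call among 7 tested members, where 22.9% of all genes passed, and MT1E was lower in LRCs in 19 of 24 same-numbered pairs. MT2A (-0.27 ± 0.14, adjusted p = 0.162; lower in 15 of 24 pairs), MT1A (-0.55 ± 0.21, adjusted p = 0.0552) and MT1G (-0.32 ± 0.17, adjusted p = 0.157) did not pass. Without RKO, MT1E was at -0.31 (adjusted p = 0.0838) and 0 members passed. With same-numbered pairs as a block, 4 members passed (MT1E, MT2A, MT1A and MT1G, all lower), where 25.5% of all genes did. MT1A was lower in 14 of 24 pairs and MT1G in 12 of 24. MT1A had 0 counts in DLD1 and in 6 of 8 SW48 libraries. MT1G had 1 count over the 8 libraries of DLD1 and 1 over those of HCT15, so neither result describes all 6 lines.

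Whether the LRC effect differed between lines was tested as the interaction of line and population. Without the block, 0 of 7 members passed (1 at an unadjusted p under 0.05, 0 with DESeq2), with adjusted p = 0.151 for MT2A and 0.181 for MT1E, where 14.3% of all genes passed. With it, 4 passed, where 33.6% of all genes did. These were MT2A (adjusted p = 9.50e-06), MT1E (adjusted p = 1.71e-05), MT1G (adjusted p = 0.0230) and MT1M (adjusted p = 0.0433). The pairing held in 4 of the 6 lines and not in RKO and SW948.

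**Figure D4:**
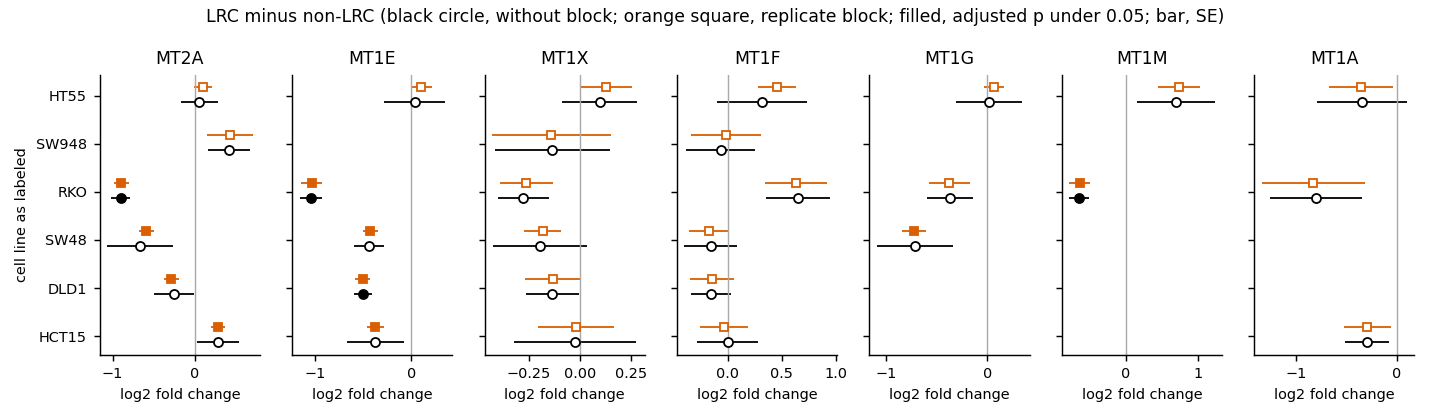
Log2 fold change of LRCs over non-LRCs (horizontal axis, own range in each panel, bars show the SE) for the tested members in each line, without (circles) and with (squares) the replicate block. Filled symbols have an adjusted p under 0.05, as for MT2A, MT1E and MT1M in RKO.

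The controls asked whether the dye or the time in culture moves these genes. At d1, MT2A stood at 182, 184, 181 and 72.1 CPM in unlabeled cells and 67.8, 77.5, 134 and 144 CPM in CFSE-labeled cells. At d5 it stood at 82.7, 133, 82.9 and 91.7 CPM in unlabeled and 214, 185, 123 and 144 CPM in CFSE-labeled cells. The unlabeled replicate 4 was the low library of its group at d1, and the groups overlapped on both days. With all 16 libraries, the dye effect on MT2A was -0.52 ± 0.29 at d1 (adjusted p = 0.196) and 0.76 ± 0.29 at d5 (adjusted p = 0.115). Among 6 members tested, edgeR called 0 at d1 (2 at an unadjusted p under 0.05, 0 with DESeq2), where 21.8% of all genes passed, and 0 at d5 (1 unadjusted, 0 with DESeq2), where 5.13% did. MT1F was lower with CFSE on both days without overlap, at 1.02 to 2.47 against 2.59 to 2.93 CPM at d1 (adjusted p = 0.0839) and 1.99 to 2.82 against 2.93 to 3.504 CPM at d5 (adjusted p = 0.221).

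Without the unlabeled d1 replicate 4, an alternative chosen after seeing the data, the dye effects on MT2A passed with opposite signs. MT2A fell by 0.79 (SE 0.25, adjusted p = 0.0384) with CFSE at d1, where 2 of 6 members and 18% of all genes passed. It rose by 0.77 (SE 0.23, adjusted p = 0.0377) at d5, where 1 of 6 members and 13.3% of all genes passed. The difference between the 2 dye effects was 1.56 for MT2A (adjusted p = 0.0138) and 1.23 for MT1E (adjusted p = 0.0408), 2 of 6 members, where 6.09% of all genes passed. With all 16 libraries, it was 1.29 ± 0.40 for MT2A (adjusted p = 0.123) and 1.01 ± 0.35 for MT1E (adjusted p = 0.157), and 0 of 6 members passed (2 at an unadjusted p under 0.05, 1 with DESeq2), where 0.999% of all genes passed.

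Over time, unlabeled cells differed in MT2A by -0.67 ± 0.29 at d5 against d1 (adjusted p = 0.0905), and 0 of 6 members passed (2 at an unadjusted p under 0.05, 0 with DESeq2), where 25.5% of all genes did. Without the unlabeled d1 replicate 4, MT2A fell by 0.98 (SE 0.25, adjusted p = 0.00535), MT1E fell by 0.65 (SE 0.24, adjusted p = 0.0420) and MT1X fell by 0.71 (SE 0.23, adjusted p = 0.0229), where 42.1% of all genes passed. In CFSE-labeled cells, MT1M stood at 0.384, 0.257, 0.130 and 0.438 CPM at d1 and 1.44, 0.735, 0.523 and 1.083 CPM at d5, and it rose by 1.53 (SE 0.56, adjusted p = 0.0377). It was 1 call among 6, where 39.3% of all genes passed. It rested on 2 to 9 counts per library at d1 and 10 to 20 at d5, and its adjusted p ran from 0.0508 to 0.137 when any 1 replicate number was left out. Without the unlabeled d1 replicate 4, 2 of 6 members passed in CFSE-labeled cells (MT1E and MT1M, both higher), where 43.7% of all genes did. Over time, 4 of 10 proliferation genes were lower in unlabeled cells (9 without that library) and 4 were higher in CFSE-labeled cells, and 4 and 6 of 9 epithelial markers were higher. Of 10 proliferation genes, 9 were higher with CFSE at d5 (2635 to 2939 CPM summed, against 1307 to 1818 CPM), and of 9 epithelial markers, 4 were lower with CFSE at d1. Reads outside genes made up 8.96% to 13.6% in unlabeled and 12.1% to 14.8% in CFSE-labeled d1 libraries, against 5.19% to 8.35% and 5.2% to 7.31% at d5. The part of these in the control results was not tested.

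**Figure D5:**
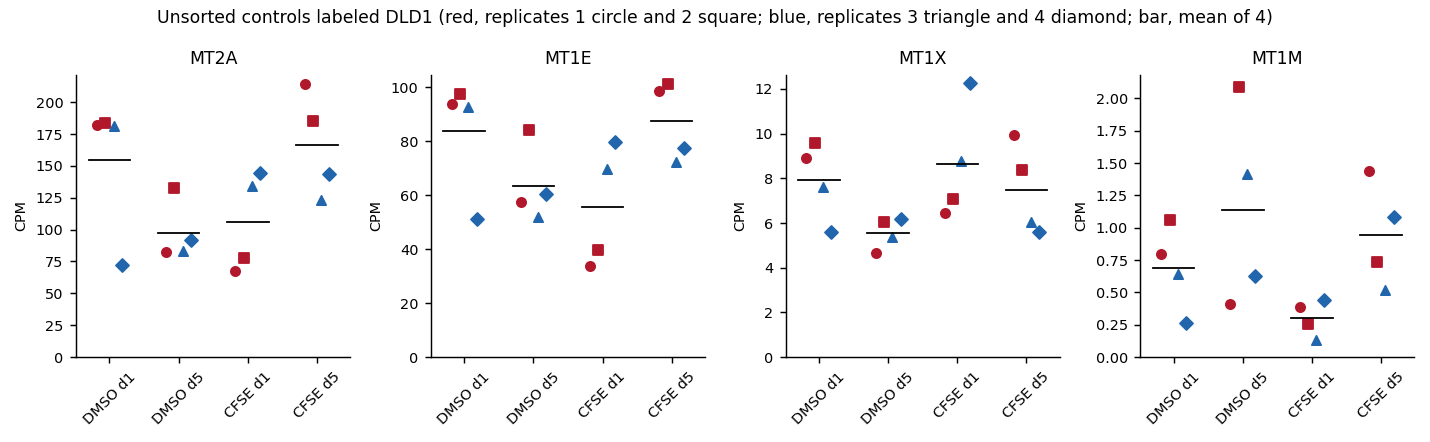
MT2A, MT1E, MT1X and MT1M levels (CPM) in the 16 unsorted controls labeled DLD1, by dye and day, with bars at the mean of 4 libraries. In the CFSE d1 group, replicates 1 and 2 lie below replicates 3 and 4 for MT2A and MT1E, and the unlabeled d1 replicate 4 lies below its group for both.

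Sorted non-LRCs were also set against the CFSE-labeled d5 controls, a comparison added after the data were seen, in which sorting and, for 1 or both lines, the line differ as well. Of 6 tested members, 4 were lower in sorted DLD1 non-LRCs (MT1A, MT1E, MT1M and MT2A), where 63.1% of all genes passed, and 4 in HCT15 non-LRCs (MT1A, MT1E, MT1X and MT2A), where 48.3% did. MT2A differed by -1.79 ± 0.21 and -1.89 ± 0.21, and MT1E by -1.07 ± 0.19 and -1.88 ± 0.20. Both comparisons share the same 4 controls, and 9 and 10 of 10 proliferation genes were lower in the sorted cells, whose part was not tested.

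Genes that sense and move metals were read beside the members, as a list of 33 genes of zinc and copper handling. In RKO LRCs, 11 of 26 tested genes passed, 8 higher and 3 lower, a share near the 41.5% of all genes that passed. MTF1, the zinc sensor, rose by 0.33 (SE 0.13, adjusted p = 0.0437), which did not pass with the block (adjusted p = 0.0632), although replicate numbers did not pair the libraries of this line. SLC30A1, a zinc exporter of the cell surface that MTF1 also induces, rose by 0.36 (SE 0.13, adjusted p = 0.0291). The largest rises were those of the zinc transporter SLC30A4 (0.85 ± 0.11), the copper pump ATP7A (0.85 ± 0.17) and SLC39A11 of the zinc importer family (0.73 ± 0.09). The falls were those of SOD1, the copper-zinc superoxide dismutase (-0.37 ± 0.08), SLC39A13 (-0.33 ± 0.08) and SLC39A1 (-0.29 ± 0.08). MTF1 and SLC30A1 were higher in the LRCs in which MT2A, MT1E and MT1M were lower. The list's median was -0.06, against 0.01 for all genes.

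Across the 6 lines, 4 of 30 tested metal handling genes rose and 0 fell, where 22.9% of all genes passed. MTF1 rose by 0.26 (SE 0.05, adjusted p = 0.000122), and the others were SLC30A4 (0.24 ± 0.09), SLC31A2 (0.16 ± 0.06) and SLC39A9 (0.10 ± 0.03). MTF1 stood at 10.9 ± 2.10 CPM in SW948 LRCs against 7.29 ± 0.207 in non-LRCs, and at 19.1 ± 1.20 against 15.03 ± 1.44 CPM in HCT15. In single lines other than RKO and without the block, 1 call was made, SLC30A9 in DLD1 (-0.21 ± 0.05, adjusted p = 0.0213). It was 1 of 27 genes tested in that line, where 14.6% of all genes passed. With the block, 2 of 27 genes passed in SW48, both higher, where 9.69% of all genes did. In SW48, SLC30A1 rose by 0.31 (SE 0.06, adjusted p = 0.0112) and SLC30A4 rose by 0.40 (SE 0.09, adjusted p = 0.0232). In DLD1, 4 of 27 passed with the block (3 higher, 1 lower), where 33.8% of all genes did, and MTF1 rose by 0.23 (SE 0.08, adjusted p = 0.0329). In HCT15, 6 of 27 passed (2 higher, 4 lower), where 21.3% of all genes did, and MTF1 rose by 0.36 (SE 0.09, adjusted p = 0.0136). SLC30A1 did not pass across lines (adjusted p = 0.130), and unlike MT2A its level was highest in HT55 (248 ± 61.2 CPM in non-LRCs) and lowest in RKO (21.2 ± 2.57 CPM).

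In the controls, 8 of 27 tested metal handling genes passed for the dye at d1, 5 higher and 3 lower, where 21.8% of all genes passed. Without the unlabeled d1 replicate 4, 7 passed, 5 higher and 2 lower, where 18% of all genes did. MTF1 rose by 0.68 (SE 0.18, adjusted p = 0.0157) and the zinc importer SLC39A10 rose by 0.74 (SE 0.17, adjusted p = 0.00737). SLC30A10, which exports manganese, fell by 2.52 (SE 0.51, adjusted p = 0.00400), at 0.267 CPM with CFSE and 1.58 CPM without. Without that library, MTF1 was at 0.74 (adjusted p = 0.0135), SLC39A10 at 0.86 (adjusted p = 0.00429) and SLC30A10 at -2.26 (adjusted p = 0.0109). At d5, 1 gene, the copper importer SLC31A1, rose by 0.33 (SE 0.09, adjusted p = 0.0480), with 0.34 (adjusted p = 0.0232) without that library. For time, 8 of 27 genes passed in unlabeled cells (11 without that library) and 12 of 27 in CFSE-labeled cells (12 without it), where 25.5% and 39.3% of all genes passed, with SLC30A10 the largest rise in both (1.17 ± 0.39 and 3.76 ± 0.49).

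Over the 16 group means of log2 CPM, MT2A followed MT1E at r = 0.96 and MT1X at r = 0.82, and it followed MT1G at r = 0.19 and MT1F at r = 0.15. Deviations of the 64 libraries from their group means correlated at r = 0.65 for MT2A with MT1E and r = 0.50 with MT1F. Members called together are therefore not independent results. Among 11751 other genes, those most like MT2A were USB1 (r = 0.97), INTS14 (r = 0.97), GLRX3 (r = 0.95), EXTL2 (r = 0.95), TOR1A (r = 0.94). Those most like the summed level of the 8 members were INTS14 (r = 0.96), USB1 (r = 0.95), GLRX3 (r = 0.94), GTF3C6 (r = 0.94), EXTL2 (r = 0.94). The groups share lines and the genes named are the highest of 11751, a choice that alone favors high values. These values are therefore descriptions with no test.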

How the data were processed

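RNA was measured by single-end 50-base sequencing of 64 TruSeq libraries. The authors aligned the reads to hg19 and deposited a raw count of reads per Ensembl gene for each library, with summary lines for reads outside genes or aligned to several places. TopHat, HTSeq and DESeq are named in the submitters' processing notes without versions, and the gene annotation is not given in the sources used here. Summary lines were left out of library sizes and tests. The reference tables gave a symbol for 39260 of the 54127 identifiers (72.5%). Library totals ran from 12237225 to 20913455 counts.

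Counts were tested with edgeR 4.0.16 in R 4.3.3 (TMM scaling, quasi-likelihood test) on the deposited counts, and a gene entered a test where 4 or more of the libraries compared held 10 or more counts. P-values were adjusted by the Benjamini-Hochberg method over all genes tested. Each line was fitted on its own 8 sorted libraries, the 16 controls in 1 fit, the levels between lines on the 24 non-LRC libraries, and the effect across lines and its difference between lines on all 48 sorted libraries. DESeq2 1.42.0, no filter, no TMM, a replicate block, a fit of all 48 sorted libraries and leaving out each replicate number were the alternatives. Leaving out the unlabeled d1 replicate 4, a line, or replicates 1 and 2 or 3 and 4 of the controls, and the comparison of sorted with unsorted cells, were added after the data were seen. The members and gene lists were chosen with earlier results of these data known. All 8 members were named, MTF1 and SLC30A1 were named as the zinc sensor and its target, and other metal handling genes were named as up to 3 of the largest changes that passed in each direction.

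Replicate numbers come from the sample titles. Correlations of deviations from the group means over genes were over 0.1 in every same-numbered LRC and non-LRC pair of HT55, SW48, DLD1 and HCT15 (means of 0.35, 0.38, 0.35 and 0.48) and not in SW948 (0.0928) or RKO (-0.0494). Among the controls this held for the CFSE-labeled d1 and d5 libraries (0.24). Of the pairs of lines, it held only for DLD1 and HCT15 non-LRCs (0.18), whose levels were compared without the block. For that pair, 4 of 7 members passed without the block and 4 of 7 with it. No pair of libraries was identical. The tests were checked on simulated counts with known changes. Intervals and limits from counts cover counting error only.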

Additional observations from a re-analysis of the deposited data

Results flagged for a closer look

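In 4 of 84 sets of 4 libraries, 1 library lay far from the other 3, with a gap above Dixon's critical value, and chance alone gives about 1 in 20 such sets. MT2A in unlabeled d1 controls stood at 182, 184, 181 and 72.1 CPM, and the gap of replicate 4 was 0.977 of the range. MT1E in the same group stood at 93.7, 97.3, 92.8 and 51.2 CPM, with a gap of 0.901 for the same library. MT1E in SW48 non-LRCs stood at 38.4, 58.4, 37.7 and 40.9 CPM, with a gap of 0.847 for replicate 2. MT1F in SW48 LRCs stood at 2.63, 4.54, 2.43 and 2.60 CPM, with a gap of 0.906 for replicate 2.

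With the replicate block, the LRC effect differed between lines for MT2A (adjusted p = 9.50e-06), MT1E (adjusted p = 1.71e-05), MT1G (adjusted p = 0.0230) and MT1M (adjusted p = 0.0433), by edgeR's interaction test over all genes. MT1M had 0 counts in SW948, SW48 and DLD1, and MT1G had 1 count each over the libraries of DLD1 and HCT15, so these lines add no effect for them. MT2A was at -0.90 ± 0.11 in RKO, -0.67 ± 0.40 in SW48, -0.25 ± 0.25 in DLD1, 0.28 ± 0.26 in HCT15, 0.06 ± 0.23 in HT55 and 0.42 ± 0.26 in SW948, as log2 fold changes from the fits of single lines without the block. Without the block 0 of the 4 passed this interaction test.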

How the results depend on the processing

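Of 770 values of members under an alternative, 661 kept their direction and side of the threshold, 57 came to pass it, 11 lost it and 41 changed sign. The 3 calls in RKO passed under every alternative but 1, the fit of all 48 sorted libraries, in which MT1M did not pass. Counts of called members moved as follows, and the cause was not tested. Without the low-count filter, members called were 1 for the dye at d5, 1 for time in unlabeled cells, 3 for time in CFSE-labeled cells, 2 for the dye by time and 2 for the difference between lines. Of 30600 genes tested in these controls, 1042, 3347, 5942 and 454 passed in the same order. For the difference between lines, 2646 of 33671 genes passed. With library sizes in place of TMM, 0 passed for time in CFSE-labeled cells, where MT1M was at an adjusted p of 0.0555 and 5451 of 14518 genes passed. DESeq2 called 1 for the dye by time, where 623 of 14517 genes passed, and 2 across lines, where 3965 of 16603 genes did. With the replicate block, 3 passed in SW48, 2 in DLD1, 2 in HCT15, 4 across lines and 4 for the difference between lines, and the block changed no other count of members by over 1.5 times. Of the metal handling genes, 9 of 26 passed with the block in RKO (6 higher, 3 lower) and 1 of 28 in SW948, lines in which replicate numbers did not pair the libraries. In these fits 4738 of 12731 genes passed in RKO and 501 of 13674 in SW948. In the fit of 48 libraries, 0 members passed in DLD1, where 646 of 16603 genes did. Without RKO, 0 members passed across lines, where 2378 of 16286 genes did. In replicates 1 and 2 alone, chosen after seeing the data, 4 passed for the dye at d1, 4 for the dye at d5, 3 for time in unlabeled cells, 4 for time in CFSE-labeled cells and 4 for the dye by time. Of 13697 genes tested there, 6688, 4273, 7915, 7651 and 4739 passed in the same order. Leaving out 1 replicate number or the unlabeled d1 replicate 4 gave 0 to 2 calls for the dye at d1, 0 to 1 at d5, 0 to 3 for time in unlabeled and 0 to 2 in CFSE-labeled cells, 0 to 2 for the dye by time, 0 to 1 in DLD1, 1 to 2 across lines and 0 to 2 for the difference between lines. The genes called in all were 338 to 3384, 0 to 1923, 0 to 6378, 2858 to 6312 and 0 to 1068 for the controls. They were 581 to 1515 in DLD1, 2243 to 2945 across lines and 522 to 2850 for the difference between lines.

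Signs turned in these log2 values. In replicates 3 and 4 alone they were -0.045 (MT1A), -0.44 (MT1F) and -0.73 (MT1X) for the dye by time, 0.091 (MT1E) and 0.17 (MT2A) for the dye at d1, -0.012 (MT1X) for the dye at d5, and -0.35 (MT1A), -0.094 (MT1E), -0.20 (MT1F) and -0.16 (MT2A) for time in CFSE-labeled cells. In replicates 1 and 2 alone they were -0.46 (MT1A) and -0.48 (MT1X) for the dye at d1 and 0.35 (MT1X) for time in CFSE-labeled cells. Without RKO, MT1M across lines was at 0.12, and without TMM, MT1F in sorted HCT15 against controls was at 0.00493. Leaving out replicates gave ranges that span 0. They were -0.10 to 0.38 (MT1F) and -0.18 to 0.77 (MT1X) for the dye by time, -0.24 to 0.32 (MT1A) and -0.19 to 0.35 (MT1X) for the dye at d1, -0.84 to 0.22 (MT1M) for the dye at d5 and -0.58 to 0.074 (MT1X) for time in CFSE-labeled cells. For the LRC effect they were -0.30 to 0.011 (MT1F) in DLD1, -0.23 to 0.16 (MT1F) and -0.17 to 0.089 (MT1X) in HCT15, -0.051 to 0.19 (MT1E), -0.037 to 0.14 (MT1G), -0.031 to 0.21 (MT1X) and -0.045 to 0.16 (MT2A) in HT55, and -0.21 to 0.24 (MT1F) and -0.33 to 0.078 (MT1X) in SW948. Against the controls, MT1F ran from -0.0089 to 0.21 in sorted DLD1 and -0.12 to 0.002035 in sorted HCT15. Counts of at most 38 per library for MT1A in sorted cells, for MT1M outside RKO and for all members in SW948 limit their precision.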
